A study of Mus musculus with 6 samples.

Results

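The 40 genes described here encode proteins that bring a cell into mitosis, build its spindle, hold chromosomes to spindle fibres and complete division. They were listed by name for their function in mitosis, with earlier results of these data known, so counts over the list are not independent of the data. Each gene was found on the array through the transcript accession of its probes and a RefSeq gene table. All 40 had at least 1 probe, among 22911 genes that could be named, and the brightest probe stood for each gene. The study set 3 kinds of sample from lungs of male mice side by side, with 2 one-colour Agilent arrays for each. The first was myofibroblasts, contractile cells that lay down matrix after injury, which came from the CD49e+ Sca1- Lin- gate of lungs exposed to bleomycin, an agent that causes fibrosis. The second was steady-state fibroblasts from the CD140a+ Lin- gate of lungs left untreated. The third, the study's control, was unsorted homogenate of untreated lung. A sorted set held 50000 cells per the study's design text, and 5.8 ng of RNA was labelled for each array. The sort gate and the bleomycin treatment differed together between the sorted groups, so they cannot be told apart. The labels name no age, strain, bleomycin dose or time after treatment, and they do not tell separate animals from repeat samples, so the p-values rest on a spread that may be technical.

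Mitosis is driven by a kinase, Cdk1, that is active only when bound to cyclins of the A and B type. Condensed chromosomes attach through their kinetochores to spindle microtubules, a checkpoint delays separation until every kinetochore is attached, and the anaphase promoting complex then marks the B-type cyclins and securin for destruction. Many genes of this programme are transcribed late in the cell cycle and are held low in resting cells. In healthy adult lung most fibroblasts are resting, and division of mesenchymal cells after bleomycin injury is well described.

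Levels are given as relative signal, which is a probe's processed signal divided by the 75th percentile of its array. Fold changes are compared gene by gene, since levels of different probes are not comparable. Between 65.5% and 73.4% of spots were well above background on an array, and none was saturated. The 2 arrays of 1 group differed on the log2 scale with an SD over genes of 0.584 in myofibroblasts, 0.876 in fibroblasts and 0.388 in homogenates. All 6 arrays were on 1 slide, with both homogenates in a row of their own, so effects of the row and of the homogenate cannot be told apart. In the other row, myofibroblasts lay in columns 1 and 2 and fibroblasts in columns 3 and 4. Effects of the column and of the sorted group therefore cannot be told apart either.

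Many promoters of these genes hold short sequence elements that the choice of members did not use. The CHR (cell cycle genes homology region) is bound by the DREAM and MuvB complexes, which repress late cell cycle genes in resting cells and activate them before mitosis, and the CCAAT box is bound by the factor NF-Y. RefSeq (GRCm38.p6) promoter sequences of 300 bases, 250 before and 50 after the transcription start, were at hand for 33 of the 40 genes. Matches are printed in capitals in 5 of these promoters, 5′ to 3′ along the gene's strand, and a match on the opposite strand appears as the reverse complement: TTTGAA or TTCAAA for the CHR, and CCAAT or ATTGG for the CCAAT box. Cdca3 and Top2a are shown for large differences between the sorted groups, Depdc1a for the largest difference measured on every array, Ccnb2 for its evenly spaced CCAAT boxes and Bub1 as a promoter without a CHR match.
Cdca3: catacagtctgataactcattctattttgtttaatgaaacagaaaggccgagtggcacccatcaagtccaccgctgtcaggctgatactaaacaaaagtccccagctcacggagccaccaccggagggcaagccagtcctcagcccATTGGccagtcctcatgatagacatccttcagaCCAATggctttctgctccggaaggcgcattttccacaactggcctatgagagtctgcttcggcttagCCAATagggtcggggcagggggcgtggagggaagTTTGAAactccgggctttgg
Depdc1a: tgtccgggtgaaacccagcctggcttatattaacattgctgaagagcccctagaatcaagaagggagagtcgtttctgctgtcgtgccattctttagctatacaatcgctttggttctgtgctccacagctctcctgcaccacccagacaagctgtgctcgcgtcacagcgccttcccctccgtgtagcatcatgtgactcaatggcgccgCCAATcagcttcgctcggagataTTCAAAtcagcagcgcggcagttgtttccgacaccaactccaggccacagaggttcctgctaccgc
Top2a: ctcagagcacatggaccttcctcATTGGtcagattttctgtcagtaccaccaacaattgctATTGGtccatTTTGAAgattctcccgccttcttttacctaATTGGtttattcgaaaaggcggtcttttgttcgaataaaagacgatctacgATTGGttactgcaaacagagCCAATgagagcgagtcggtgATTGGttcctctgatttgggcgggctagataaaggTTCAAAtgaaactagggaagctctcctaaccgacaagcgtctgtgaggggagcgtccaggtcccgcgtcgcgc
Ccnb2: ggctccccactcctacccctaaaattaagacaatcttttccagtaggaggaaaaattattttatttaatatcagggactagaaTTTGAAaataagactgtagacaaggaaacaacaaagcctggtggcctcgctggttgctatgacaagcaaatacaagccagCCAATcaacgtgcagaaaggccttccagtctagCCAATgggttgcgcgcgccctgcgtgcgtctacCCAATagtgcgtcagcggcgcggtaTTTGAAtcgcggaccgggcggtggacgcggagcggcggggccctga
Bub1: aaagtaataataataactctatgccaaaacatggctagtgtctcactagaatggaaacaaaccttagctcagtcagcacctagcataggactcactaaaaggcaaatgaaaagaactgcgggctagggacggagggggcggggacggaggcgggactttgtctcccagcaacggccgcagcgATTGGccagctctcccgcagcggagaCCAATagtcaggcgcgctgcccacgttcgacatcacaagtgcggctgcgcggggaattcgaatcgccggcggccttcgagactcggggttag

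Cdca3 (chr6:124829926-124830225, plus strand) held 3 CCAAT boxes and 1 CHR match, and Depdc1a (chr3:159495183-159495482, plus strand) held 1 of each. Top2a (chr11:99024140-99024439, minus strand) held 6 CCAAT boxes, most of them on the opposite strand, and 2 CHR matches. In Ccnb2 (chr9:70421505-70421804, minus strand) the 3 CCAAT boxes lay 87, 54 and 21 bases before the start and 1 of the 2 CHR matches lay 5 bases after it. Bub1 (chr2:127831810-127832109, minus strand) held 2 CCAAT boxes and neither spelling of the CHR.

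Over the 33 promoters, 27 (81.8%) held a CHR in either spelling, TTTGAA or TTTAAA, against 30.6% of the 27025 genes with a promoter in the table and 24.5% of the 12633 of them that were tested between the sorted groups. Within 50 bases of the start the CHR was present in 23 (69.7%), against 9.54% of all genes and 6.98% of tested genes. The spelling TTTGAA was in 24 (72.7%), against 20.2% of all genes, and TTTAAA in 8 (24.2%), against 14.9%. A CCAAT box was in 26 (78.8%), against 41.1% of all genes, and at least 2 of them were in 19 (57.6%), against 13.3%. Both elements were in 24 (72.7%), against 12.2% of all and 10.0% of tested genes. The median GC content was 58.0% in the members' promoters, 52.7% over all genes and 59.3% over tested genes. Both strands were searched, and overlapping matches were counted separately. A match describes the letters in this window and shows neither binding nor its effect.

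**Figure D1:**
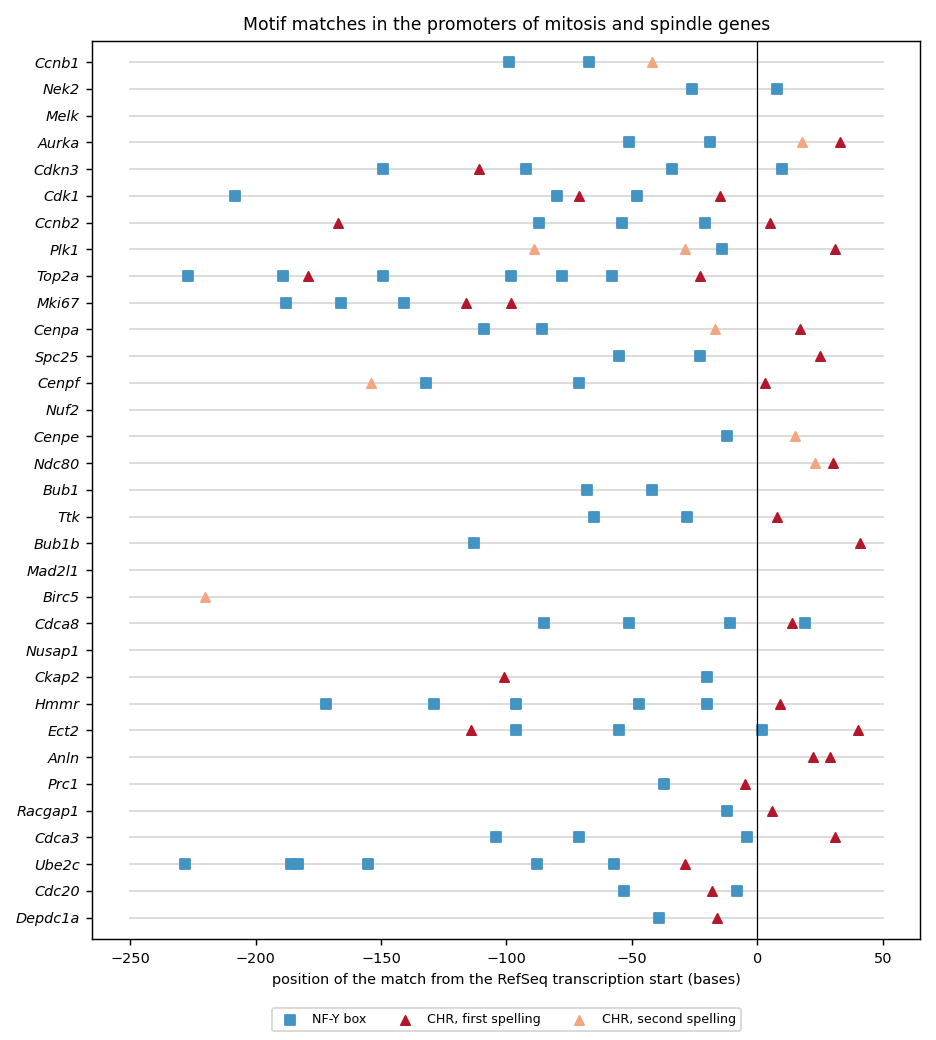
Positions of motif matches in the promoters of 33 mitosis and spindle genes, 1 line per gene; the horizontal axis is the distance in bases from the RefSeq transcription start, squares are CCAAT boxes (the NF-Y box), dark triangles the CHR spelled TTTGAA and pale triangles the CHR spelled TTTAAA. In 23 of the 33 promoters a CHR match lies within 50 bases of the start, and 19 hold at least 2 CCAAT boxes.

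Between the sorted groups, 36 of the 40 genes were higher in bleomycin myofibroblasts than in steady-state fibroblasts at a limma adjusted p under 0.05, and none was lower, where 9.21% of the 16008 genes tested were higher and 8.01% lower. The median log2 difference of the 40 was 4.40, or 3.90 with genes not measured in fibroblasts set at their lower bound, against -0.06 over all genes tested. The 4 genes that missed the threshold were Aurkb, Hmmr, Prc1 and Racgap1. The levels of the groups did not overlap for any gene: 39 were higher on both myofibroblast arrays than on either fibroblast array, where 30.3% of tested genes were, and Hmmr was lower on both, as were 32.7%. All 40 were well above background on both myofibroblast arrays, 20 on both fibroblast arrays, 7 on 1 and 13 on neither, where 66.0% of all named genes were above background on both myofibroblast arrays and 65.7% on both fibroblast arrays. For the 20 genes not measured on both fibroblast arrays a lower bound of the fold change is given. The adjusted p beside such a bound belongs to the fitted difference, which uses the readings below background, and not to the bound. These genes entered the test through the myofibroblast arrays alone, which left little room for a lower call, and all of them are among the 36 calls. Of the 20 measured on all 4 arrays, 16 were higher, with a median log2 difference of 3.46. In bulk samples such as these, fewer cells of a type and less RNA per cell cannot be told apart. Of the 36 calls, 13 were lost when some single array was left out, each of them without at least 1 of the myofibroblast arrays; without either myofibroblast array 24 genes passed, and without either homogenate array, which serve only the shared estimate of spread here, 30.

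**Figure D2:**
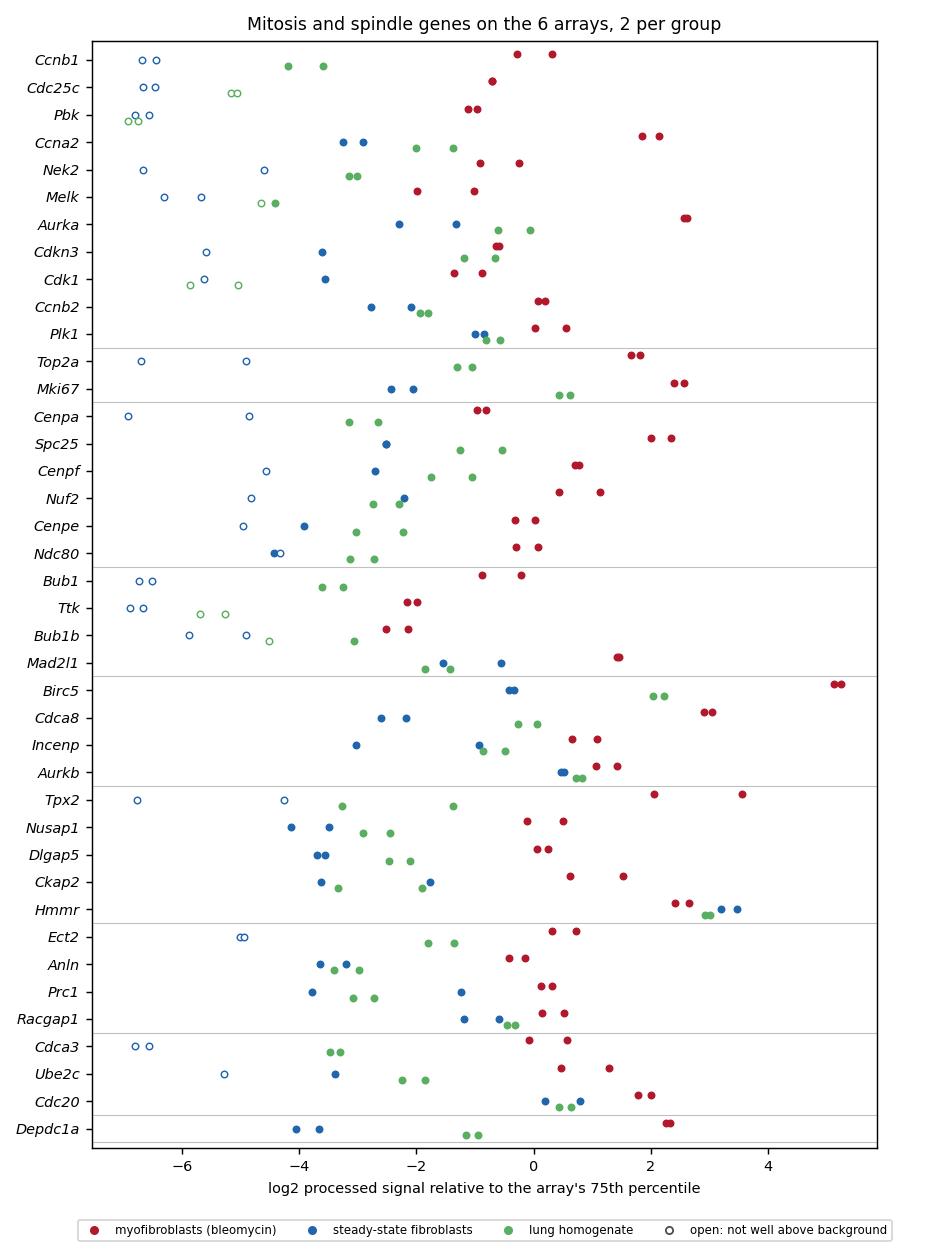
Log2 relative signal of the 40 mitosis and spindle genes on each of the 6 arrays, grouped by role between grey lines; red points are myofibroblasts, blue steady-state fibroblasts and green lung homogenates, and open points were not well above background. Red points lie to the right of both blue points for every gene except Hmmr, and 13 genes have 2 open blue points.

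Among the kinases, cyclins and regulators of mitotic entry, 11 of 11 were higher in myofibroblasts. Ccnb1, the B-type cyclin that activates Cdk1, had a relative signal of 0.821 and 1.24 in myofibroblasts, against 0.00969 and 0.0115 in fibroblasts and 0.0545 and 0.0826 in homogenates. It was not well above background on either fibroblast array, and was at least 23.5-fold higher in myofibroblasts (adjusted p = 0.00128). Cdc25c, the phosphatase that removes the inhibitory phosphates from Cdk1, had 0.608 and 0.610 in myofibroblasts, against 0.00974 and 0.0114 in fibroblasts and 0.0278 and 0.0299 in homogenates. Only the myofibroblast arrays measured it, at least 14.2-fold higher than in fibroblasts (adjusted p = 0.000936). Pbk, a kinase active in mitosis, had 0.512 and 0.462 in myofibroblasts, against 0.00895 and 0.0105 in fibroblasts and 0.00923 and 0.00821 in homogenates. It too was measured in myofibroblasts alone, at least 11.3-fold higher than in fibroblasts (adjusted p = 0.000958). Ccna2, the cyclin of S phase and early mitosis, was measured on all arrays, with 4.42 and 3.595 in myofibroblasts, against 0.133 and 0.104 in fibroblasts and 0.248 and 0.384 in homogenates. Its log2 difference between the sorted groups was 5.08 ± 0.33 (SE, n = 2 arrays a group, adjusted p = 0.00161).

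The other 7 genes of this role spanned a wide range. Aurka, the kinase of centrosome maturation and spindle assembly, rose by 4.41 ± 0.40 on the log2 scale and the cyclin Ccnb2 by 2.58 ± 0.31, both measured on all arrays. Plk1, the polo kinase, had the smallest called change, with 1.48 and 1.02 in myofibroblasts, against 0.555 and 0.497 in fibroblasts (2.34-fold, adjusted p = 0.0433), and its call was lost without either homogenate array, either myofibroblast array or either fibroblast array. Cdk1 itself was measured on 1 fibroblast array, with 0.541 and 0.391 in myofibroblasts, against 0.0847 and 0.0202 in fibroblasts. The second fibroblast value was not well above background, and Cdk1 was at least 7.32-fold higher in myofibroblasts (adjusted p = 0.0305), a call lost without either myofibroblast or either homogenate array. Nek2, a kinase of centrosome separation, and Melk, a kinase of the AMPK family, were not measured in fibroblasts and were at least 15.6-fold and 8.25-fold higher. Cdkn3, a phosphatase that acts on Cdks, had 0.645 and 0.665 in myofibroblasts, against 0.0207 and 0.0813 in fibroblasts and 0.634 and 0.440 in homogenates. With this probe the homogenate level of Cdkn3 lay close to the myofibroblast level, and only 1 fibroblast array measured it. In myofibroblasts Cdkn3 exceeded the fibroblast level at least 11.6-fold (adjusted p = 0.017). The other Cdkn3 probe had 0.676 and 1.07 in myofibroblasts, against 0.0461 and 0.0301 in fibroblasts and 0.0378 and 0.0597 in homogenates. Outside myofibroblasts, that probe was well above background only on homogenate replicate 2. The call of Cdkn3 was lost without either myofibroblast array, and that of Nek2 without myofibroblast replicate 1.

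Both genes of chromosome structure were higher in myofibroblasts. Top2a, the topoisomerase that untangles sister chromatids, had 3.53 and 3.18 in myofibroblasts, against 0.0333 and 0.00960 in fibroblasts and 0.405 and 0.482 in homogenates. With this brightest probe, neither fibroblast array measured Top2a, and its signal was at least 78.2-fold higher in myofibroblasts. The dimmer Top2a probe, measured on all arrays, gave a smaller log2 difference of 3.05. Mki67, which encodes the proliferation marker Ki-67 that coats mitotic chromosomes, was measured on every array. It had 5.96 and 5.31 in myofibroblasts, against 0.241 and 0.186 in fibroblasts and 1.54 and 1.35 in homogenates. The log2 difference of Mki67 between the sorted groups was 4.73 ± 0.27 (SE, adjusted p = 0.00132), with fibroblasts lowest and homogenates between.

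All 6 centromere and kinetochore genes were higher in myofibroblasts. Cenpa, the histone H3 variant that marks the centromere, had 0.573 and 0.511 in myofibroblasts, against 0.00822 and 0.0343 in fibroblasts and 0.112 and 0.158 in homogenates. It was not measured in fibroblasts and was at least 12.6-fold higher in myofibroblasts (adjusted p = 0.00994). Spc25, Ndc80 and Nuf2 belong to the 4-subunit Ndc80 complex that grips the microtubule. Spc25, measured on all arrays, had 5.09 and 4.004 in myofibroblasts, against 0.175 and 0.174 in fibroblasts and 0.688 and 0.419 in homogenates. Its log2 difference between the sorted groups was 4.69 ± 0.33 (SE, adjusted p = 0.0019). Nuf2, with 2.20 and 1.35 in myofibroblasts, against 0.0352 and 0.215 in fibroblasts and 0.204 and 0.150 in homogenates, was measured on 1 fibroblast array. It was at least 18.7-fold higher in myofibroblasts, and Ndc80, also measured on 1 fibroblast array, at least 19.3-fold. Cenpf, a large kinetochore protein, had 1.71 and 1.64 in myofibroblasts, against 0.153 and 0.0420 in fibroblasts and 0.484 and 0.297 in homogenates. Cenpf was at least 19.9-fold higher and Cenpe, the kinetochore kinesin, at least 16.3-fold, each measured on 1 fibroblast array. The calls of Cenpa, Cenpf and Nuf2 were lost without either myofibroblast array, and that of Nuf2 also without either homogenate array.

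The 4 spindle checkpoint genes were all higher in myofibroblasts. Bub1, a checkpoint kinase of the kinetochore, had 0.863 and 0.542 in myofibroblasts, against 0.00932 and 0.0109 in fibroblasts and 0.0813 and 0.105 in homogenates. It was at least 15.96-fold higher (adjusted p = 0.00129). Ttk, the kinase Mps1 that starts the checkpoint signal, had 0.252 and 0.223 in myofibroblasts, against 0.00838 and 0.00976 in fibroblasts and 0.0258 and 0.0193 in homogenates. Only the myofibroblast arrays measured Ttk, at least 5.53-fold higher than in fibroblasts (adjusted p = 0.00132). Bub1b, which encodes BubR1 of the complex that inhibits the anaphase promoting complex, had 0.226 and 0.174 in myofibroblasts, against 0.0331 and 0.0169 in fibroblasts and 0.119 and 0.0433 in homogenates. It was at least 4.63-fold higher, not measured in fibroblasts and measured on 1 homogenate array. Mad2l1, the Mad2 subunit of the same inhibitor, was measured on every array. Mad2l1 had 2.70 and 2.76 in myofibroblasts, against 0.681 and 0.343 in fibroblasts and 0.370 and 0.278 in homogenates, a log2 difference between the sorted groups of 2.50 ± 0.39 (SE, adjusted p = 0.0154). The calls of Bub1b and Mad2l1 were lost without either myofibroblast array, and that of Bub1b also without fibroblast replicate 2.

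The chromosomal passenger complex corrects wrong kinetochore attachments and later acts at the division site, and all 4 of its subunits were measured on every array. Birc5, which encodes survivin, had 38.3 and 35.1 in myofibroblasts, against 0.794 and 0.749 in fibroblasts and 4.11 and 4.67 in homogenates. Cdca8, which encodes borealin, had 7.51 and 8.28 in myofibroblasts, against 0.221 and 0.164 in fibroblasts and 1.04 and 0.834 in homogenates. For both, the arrays of each group lay close together and fibroblasts were lowest. The log2 differences between the sorted groups were 5.57 ± 0.24 for Birc5 (SE, adjusted p = 0.000958) and 5.37 ± 0.28 for Cdca8 (adjusted p = 0.00128). Incenp, the scaffold subunit, had 1.57 and 2.12 in myofibroblasts, against 0.524 and 0.122 in fibroblasts and 0.714 and 0.549 in homogenates. Its log2 difference of 2.85 ± 0.69 passed narrowly (adjusted p = 0.0457), and the call was lost without either myofibroblast or either homogenate array. Aurkb, the kinase of the complex, had 2.10 and 2.69 in myofibroblasts, against 1.44 and 1.38 in fibroblasts and 1.66 and 1.77 in homogenates, and its log2 difference of 0.75 ± 0.25 did not pass (adjusted p = 0.0963).

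Of the 5 spindle microtubule genes, 4 were higher in myofibroblasts. Tpx2, which activates Aurora A on the spindle, had 11.8 and 4.18 in myofibroblasts, against 0.00916 and 0.0521 in fibroblasts and 0.386 and 0.103 in homogenates. It had the largest fitted difference of the 40 genes and was at least 155-fold higher in myofibroblasts (adjusted p = 0.0085), although it was the 1 gene whose myofibroblast arrays lay over 2-fold apart. Nusap1, a microtubule bundling protein, had 0.925 and 1.42 in myofibroblasts, against 0.0883 and 0.0568 in fibroblasts and 0.183 and 0.133 in homogenates, a log2 difference between the sorted groups of 4.02 ± 0.38 (SE). Dlgap5, a stabiliser of spindle fibres near chromosomes, had 1.18 and 1.04 in myofibroblasts, against 0.0849 and 0.0768 in fibroblasts and 0.232 and 0.181 in homogenates, a difference of 3.78 ± 0.26. In these last genes the arrays of each group lay closer together than the groups did. Ckap2, a spindle-associated protein, had 2.87 and 1.54 in myofibroblasts, against 0.292 and 0.0809 in fibroblasts and 0.0988 and 0.268 in homogenates. Its difference was 3.78 ± 0.79 (adjusted p = 0.031), and the call was lost without either myofibroblast array, either homogenate array or fibroblast replicate 2. Hmmr, the hyaluronan receptor RHAMM that also binds spindle microtubules, ran the other way with its brightest probe. That probe had 6.30 and 5.35 in myofibroblasts, against 11.2 and 9.24 in fibroblasts and 8.09 and 7.62 in homogenates, a log2 difference between the sorted groups of -0.81 ± 0.25 that did not pass (adjusted p = 0.0822) but did without fibroblast replicate 2.

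Of the 4 midzone and cytokinesis genes, 2 were higher in myofibroblasts and 2 did not pass. Ect2, the exchange factor that activates RhoA at the cell equator, had 1.25 and 1.66 in myofibroblasts, against 0.0308 and 0.0323 in fibroblasts and 0.388 and 0.288 in homogenates. Neither fibroblast array measured it, and it was at least 33.5-fold higher. Anln, the anillin scaffold of the contractile ring, had 0.900 and 0.748 in myofibroblasts, against 0.109 and 0.0793 in fibroblasts and 0.126 and 0.0941 in homogenates, a log2 difference between the sorted groups of 3.14 ± 0.30 (SE, adjusted p = 0.00422). With this probe fibroblasts and homogenates thus overlapped for Anln. The other Anln probe had 1.435 and 1.64 in myofibroblasts, against 0.00919 and 0.0312 in fibroblasts and 0.323 and 0.169 in homogenates. Neither fibroblast array measured that probe, and its fibroblast and homogenate levels did not overlap. Prc1, which crosslinks midzone microtubules, had 1.24 and 1.09 in myofibroblasts, against 0.425 and 0.0721 in fibroblasts and 0.118 and 0.150 in homogenates. The wide gap between its fibroblast arrays went with a large error, 2.73 ± 0.81, and an adjusted p of 0.0723. Racgap1, the GTPase activating subunit of centralspindlin, had 1.10 and 1.44 in myofibroblasts, against 0.437 and 0.663 in fibroblasts and 0.807 and 0.733 in homogenates, and its difference of 1.23 ± 0.31 lay just outside the threshold (adjusted p = 0.0521). Without fibroblast replicate 2 both Prc1 and Racgap1 passed, and Prc1 also passed without fibroblast replicate 1.

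The 3 genes of the anaphase promoting complex and its partners were higher in myofibroblasts. Cdca3, a substrate of the complex that helps mark the mitotic inhibitor kinase Wee1 for destruction, had 0.946 and 1.49 in myofibroblasts, against 0.00896 and 0.0105 in fibroblasts and 0.0902 and 0.101 in homogenates. It was at least 27.7-fold higher (adjusted p = 0.00101). Ube2c, the ubiquitin conjugating enzyme of the complex, had 1.38 and 2.44 in myofibroblasts, against 0.0256 and 0.0952 in fibroblasts and 0.211 and 0.277 in homogenates. Measured on 1 fibroblast array, Ube2c was at least 30.0-fold higher (adjusted p = 0.0085), a call lost without myofibroblast replicate 2. Cdc20, the activator of the complex in mid mitosis, had 3.43 and 4.03 in myofibroblasts, against 1.14 and 1.73 in fibroblasts and 1.35 and 1.56 in homogenates, a log2 difference between the sorted groups of 1.402 ± 0.30 (SE, adjusted p = 0.0346). Its call was lost without either myofibroblast array, either homogenate array or fibroblast replicate 1. Depdc1a, a gene expressed in dividing cells, had 5.04 and 4.82 in myofibroblasts, against 0.0599 and 0.0791 in fibroblasts and 0.452 and 0.521 in homogenates. Its log2 difference of 6.16 ± 0.27 (71.6-fold, adjusted p = 0.000958) was the largest among members measured on all 6 arrays.

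**Figure D3:**
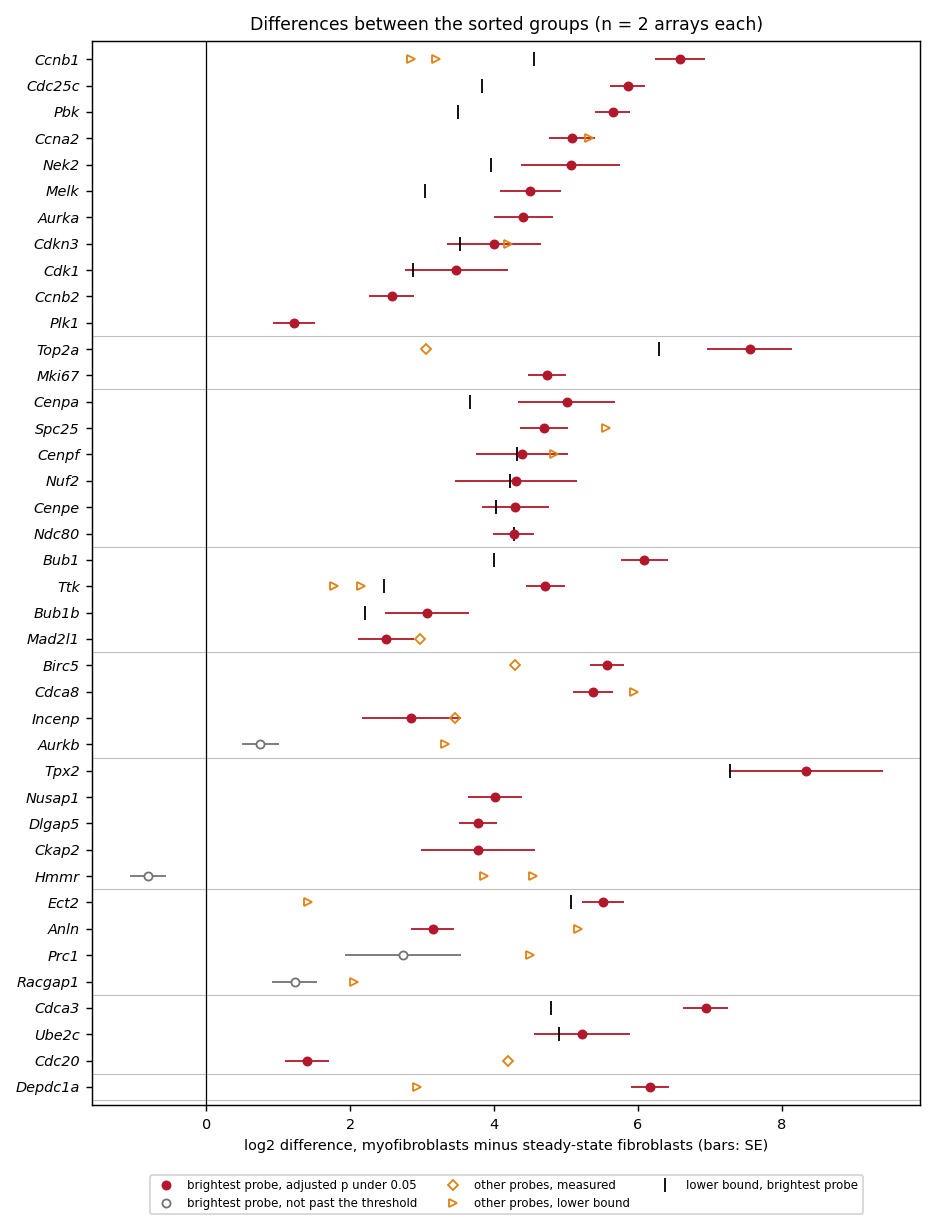
Log2 difference between myofibroblasts and steady-state fibroblasts for each of the 40 genes, with limma standard errors as bars; filled circles had an adjusted p under 0.05, open circles did not, vertical ticks are lower bounds for genes not measured on both fibroblast arrays, and diamonds and triangles are other probes at their difference and at their lower bound. The brightest probes of Hmmr, Aurkb, Racgap1 and Prc1 are open, and the other probes of these 4 genes are all drawn at lower bounds, at least 4.13-fold (Racgap1) to 23.3-fold (Hmmr).

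For 19 of the 40 genes the array carried more than 1 probe, and the choice of probe mattered for the 4 genes that missed the threshold. The 22 probes other than the brightest were all tested and all called higher in myofibroblasts, when p-values were adjusted over all named probes. Of all 7254 probes tested that were not their gene's brightest, 9.14% were called higher. The 5 measured on both fibroblast arrays had log2 differences of 2.97 to 4.28, and the other 17 were at least 2.66-fold (Ect2) to 61.5-fold (Cdca8) higher. Each of these 17 entered the test through the myofibroblast arrays alone, which left little room for a lower call. All other probes of Hmmr, Aurkb, Prc1 and Racgap1 were among them. The share of 9.14% was not limited to such probes. Of Hmmr, 1 other probe had 0.901 and 1.11 in myofibroblasts, against 0.00864 and 0.0101 in fibroblasts and 0.0349 and 0.107 in homogenates. The remaining Hmmr probe had 0.462 and 0.841 in myofibroblasts, against 0.009999 and 0.0117 in fibroblasts and 0.0225 and 0.0229 in homogenates. Neither was measured on a fibroblast array, and they were at least 23.3-fold and 14.6-fold higher in myofibroblasts. The other Aurkb probe had 0.274 and 0.669 in myofibroblasts, against 0.00852 and 0.00986 in fibroblasts and 0.0619 and 0.0372 in homogenates. The other probes of Aurkb, Prc1 and Racgap1 were not measured in fibroblasts either and were at least 9.98-fold, 22.6-fold and 4.13-fold higher. With any probe of the gene counted, and p-values adjusted over all named probes, 39 of the 40 genes had a probe that was higher in myofibroblasts, as had 10.3% of the 16031 genes with a tested probe; Plk1, with 1 probe, lay just outside (limma adjusted p = 0.0501). Top2a was higher with both of its probes, but by different sizes. Its dimmer probe, measured on all arrays, had 0.708 and 0.835 in myofibroblasts, against 0.0852 and 0.101 in fibroblasts, a difference of 3.05. Which transcripts each probe reads was not tested.

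Against whole lung, 31 of the 40 genes were higher in myofibroblasts and none was lower, where 11.9% of the 17165 genes tested were higher and 15.0% lower. The median log2 difference was 2.92, or 2.90 with genes not measured on both homogenate arrays at their bound, against -0.01 over all genes tested. These were 6 genes, Cdk1, Cdc25c, Pbk, Melk, Ttk and Bub1b. They entered the test through the myofibroblast arrays alone, which left little room for a lower call. All but Bub1b are among the 31 calls. Levels of the groups did not overlap for any gene, 39 being higher on both myofibroblast arrays, as were 38.7% of tested genes, and Hmmr lower, as were 38.8%. Pbk was at least 12.5-fold higher in myofibroblasts than in homogenates and Cdc25c at least 15.6-fold. Tpx2 rose by 5.14 ± 1.07 on the log2 scale against homogenates (SE, adjusted p = 0.0211), a call lost without either myofibroblast array or homogenate replicate 2. The genes that did not pass with their brightest probe were Plk1 (0.99), Cdkn3 (0.31), Cenpa (2.02), Cenpf (2.15), Bub1b (1.47), Incenp (1.54), Aurkb (0.47), Racgap1 (0.71) and Hmmr (-0.44), with log2 differences in brackets. Other probes of Hmmr (4.03 and 4.78), Cdkn3 (4.16), Cenpf (3.91), Racgap1 (3.71), Aurkb (3.16) and Incenp (1.815) were higher in myofibroblasts. Each had a limma adjusted p under 0.05 over all named probes. Only the Cenpf and Incenp probes among these were measured on both homogenate arrays, so the other differences are fitted values, not measured sizes. Plk1, Cenpa and Bub1b had no other probe. With the brightest probes, the signs of Cdkn3 and Aurkb turned under the authors' deposited scaling. Of the 31 calls, 13 were lost without some single array, and without homogenate replicate 2 the count was 20.

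Steady-state fibroblasts were set against whole lung for 34 of the 40 genes. The other 6, Cdk1, Cdc25c, Pbk, Melk, Ttk and Bub1b, were not above background on both arrays of either group. Of the 34 genes, 16 were lower in fibroblasts and none was higher, where 11.8% of the 17065 genes tested were lower and 8.09% higher. The median log2 difference was -1.55, or -1.37 with genes not measured on both fibroblast arrays at their bound, against 0.03 over all genes tested. Such genes made up 14 of the 34, and they entered the test through the homogenate arrays alone. That left little room for a higher call among them. The genes measured on all 4 arrays that were lower in fibroblasts were Depdc1a (-2.82), Mki67 (-2.77), Birc5 (-2.51), Cdca8 (-2.29), Spc25 (-1.62), Ccna2 (-1.39) and Dlgap5 (-1.34), with log2 differences in brackets. With the brightest probes, Cdkn3 was at least 9.32-fold lower in fibroblasts than in homogenates (adjusted p = 0.0143) and Top2a at least 10.3-fold. Ect2, also with its brightest probe, was at least 7.79-fold lower. The other probes of Cdkn3 and Ect2 were not tested here. The dimmer Top2a probe, measured on all arrays, gave a log2 difference of -1.63. Of the 34, 27 were lower on both fibroblast arrays than on either homogenate array, where 30.4% of tested genes were, 1 was higher on both, where 32.4% of tested genes were, and 6 overlapped. Among the 20 above background on all 6 arrays, 14 were lower in this way, 1 was higher and 5 overlapped. Calls of Ccna2, Cdkn3, Cenpa, Cenpe, Dlgap5, Ndc80 and Spc25 were lost without some single array. Leaving out an array also changed which genes were tested, so the counts that follow can include members outside the 34. Without either homogenate array 9 genes were lower, and without fibroblast replicate 2 the count was 22, of which 19 were lower and 3 higher. In 31 of the 34 genes the homogenate mean lay between those of the sorted groups. It was the lowest for Mad2l1 and Prc1, both measured on all 6 arrays, and fibroblasts were highest for Hmmr. The 3 comparisons share arrays in pairs, so they are not independent of each other.

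**Figure D4:**
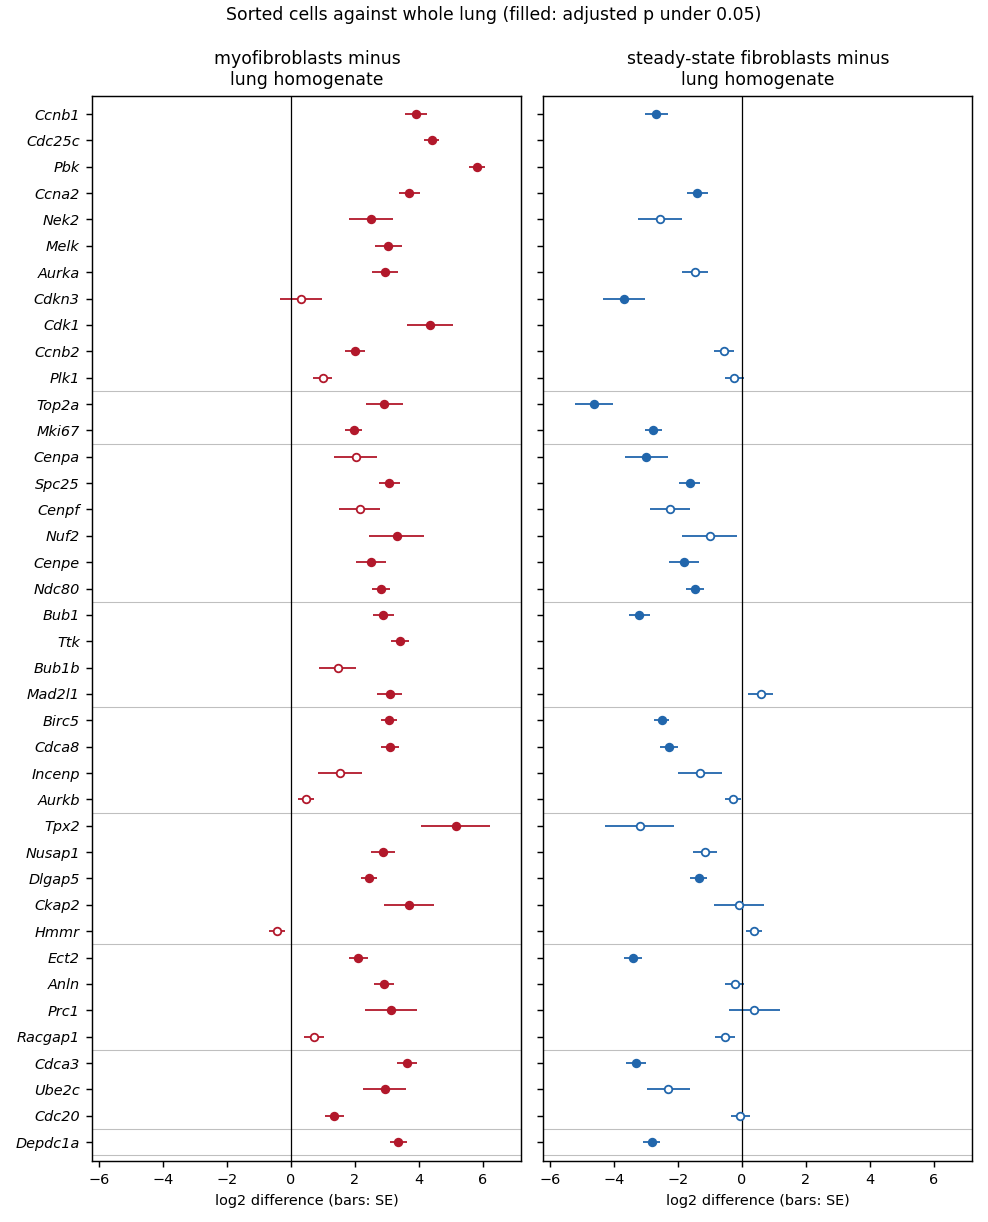
Log2 differences of myofibroblasts (left) and steady-state fibroblasts (right) from lung homogenate for the 40 genes, with standard errors as bars and filled points for an adjusted p under 0.05. Filled points lie to the right of 0 for 31 genes in myofibroblasts and to the left of 0 for 16 genes in fibroblasts; genes without a point were not tested, and points of genes not measured on both arrays of a group are fitted values, not measured sizes.

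Other cell cycle genes, listed by function in 8 groups, were compared between the sorted groups in the same fit. Of 116 tested, 73 were higher in myofibroblasts and 4 lower. Over all 16008 genes tested, 9.21% were higher and 8.01% lower, the shares to set beside each list below. The median log2 difference of the 116 was 1.98. It was 1.84 with the 29 genes not measured on both arrays of 1 of the groups at their bound. Of the mitotic kinesins, the motors that move chromosomes and spindle fibres, 9 of 11 were higher and none lower, with a median of 3.53, or 2.73 with bounds. Kif11, the motor that pushes spindle poles apart, was at least 27.2-fold higher, Kif23 of centralspindlin at least 41.7-fold and Kif20a, a midzone motor measured on all arrays, rose by 5.75 ± 0.30 on the log2 scale. Of the other kinetochore and centromere genes 16 of 21 were higher and none lower, with a median of 2.43, or 2.26 with bounds; Ska3 was at least 22.4-fold and Cenph at least 12.6-fold higher. Of the other mitotic entry and exit genes 15 of 21 were higher and none lower, with a median of 2.68, or 1.96 with bounds. Among them Tacc3, a spindle protein stabilised by Aurora A, rose by 5.12 ± 0.33 and Aspm, a protein of the spindle poles, was at least 9.47-fold higher. Of the condensin and cohesin genes 4 of 12 were higher, with condensin subunits Ncapg and Ncaph at least 19.7-fold and 13.3-fold, and 1 was lower. The lower one was Pttg1, the securin that restrains separase, with 3.22 and 2.49 in myofibroblasts, against 17.2 and 9.58 in fibroblasts and 8.29 and 8.20 in homogenates, a difference of -2.18 ± 0.36 (adjusted p = 0.0173).

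Genes of the earlier cell cycle were also compared. Of the cell cycle transcription factors 7 of 10 were higher and none lower, with a median of 1.27. E2f8, a repressor of the E2F family, was at least 9.42-fold higher than in fibroblasts. Mybl2, which joins the MuvB complex, rose by 2.25 ± 0.38 on the log2 scale. Foxm1, the factor that drives mitotic genes through MuvB, had 1.89 and 0.966 in myofibroblasts, against 0.0453 and 0.00997 in fibroblasts and 0.134 and 0.127 in homogenates. E2f2 was at least 8.11-fold higher than in fibroblasts and stood highest in homogenates, with 0.303 and 0.399 in myofibroblasts, against 0.0149 and 0.0163 in fibroblasts and 1.20 and 1.05 in homogenates. Of the DNA replication genes 14 of 23 were higher and none lower, with a median of 2.01, led by Uhrf1, which maintains DNA methylation at replication, with a rise of 4.12 ± 0.40, and the ribonucleotide reductase subunit Rrm2, with 3.96 ± 0.55. Of the G1 cyclins and their kinases 5 of 8 were higher, led by Ccnd1, the cyclin D1 gene, with 6.49 and 5.59 in myofibroblasts, against 0.250 and 0.458 in fibroblasts. The Cdk inhibitors and pocket proteins were split, with 3 higher and 3 lower of 10 and a median of 0.79. Cdkn2a was at least 7.68-fold higher and Cdkn2b rose by 3.40 ± 0.42, while Cdkn1c, which encodes p57, fell by 3.73 ± 0.32 on the log2 scale. Cdkn1a, the p21 gene, was the third that rose, and Cdkn1b, the p27 gene, and Rbl2, the p130 gene of the DREAM complex, fell by 1.60 ± 0.36 and 1.36 ± 0.32.

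**Figure D5:**
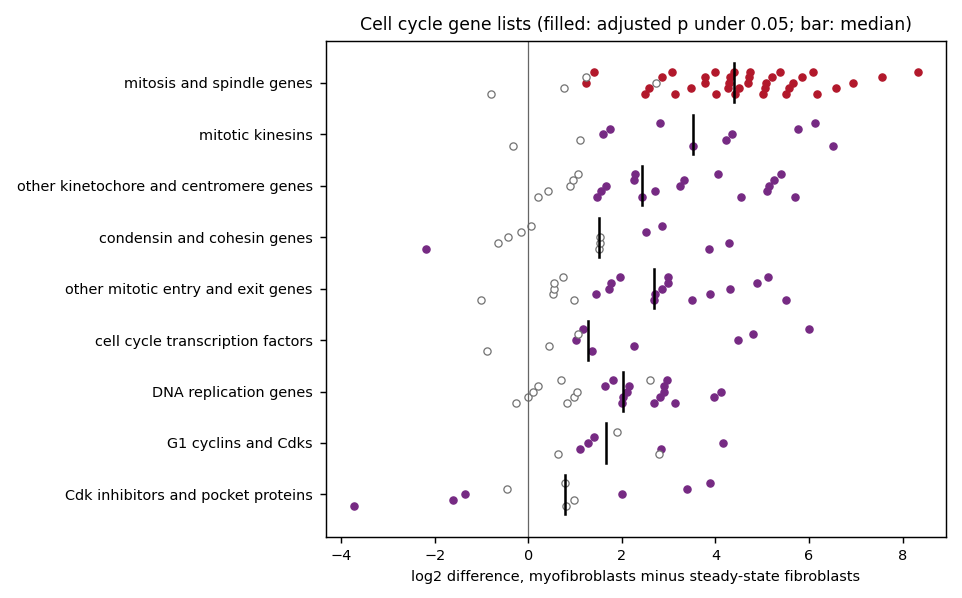
Log2 difference between myofibroblasts and steady-state fibroblasts for the tested genes of the mitosis and spindle set (red) and of 8 other cell cycle lists (purple); each point is a gene, filled at an adjusted p under 0.05, and black bars are medians, both at fitted values. The median is 4.40 for mitosis and spindle genes (3.90 with bounds), 3.53 for kinesins (2.73 with bounds) and 0.79 for Cdk inhibitors and pocket proteins.

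Markers of the sorted cells and of other cells that the gates or the homogenate could hold were summed as relative signal. The 8 myofibroblast markers summed to 817 to 846 in myofibroblasts, against 67.0 to 105 in fibroblasts and 42.5 to 42.8 in homogenates, and 8 of 8 were higher in myofibroblasts than in fibroblasts. The 8 fibroblast markers summed to 551 to 566 in myofibroblasts, against 514 to 574 in fibroblasts and 79.0 to 84.9 in homogenates, and all were measured on both arrays of each group. Col1a2, a type I collagen chain, carried most of the sum in myofibroblasts, with 507 and 515 in myofibroblasts, against 194 and 160 in fibroblasts. It was the 1 fibroblast marker that was higher in myofibroblasts, 4 of the 8 were lower, and the median log2 difference of the 8 was -1.88. Macrophage and monocyte markers summed to 176 to 185 in myofibroblasts, against 176 to 193 in fibroblasts and 282 to 294 in homogenates. Itgam and Csf1r lay within 2-fold on all arrays and carried most of the sum in the sorted groups. The other markers of this list summed to 1.61 to 2.90 in myofibroblasts, against 0.996 to 1.35 in fibroblasts and 126 to 129 in homogenates. Of the 5 of these that were tested, 1 was higher in myofibroblasts, the scavenger receptor gene Marco, by 3.07 on the log2 scale. Ptprc, the pan-leukocyte gene, was above background on 1 myofibroblast array and on no fibroblast array. Lymphocyte markers summed to 3.30 to 3.77 in myofibroblasts, against 3.92 to 4.64 in fibroblasts and 9.84 to 11.2 in homogenates, and neither of the 2 tested between the sorted groups passed. Endothelial markers summed to 0.209 to 0.429 in myofibroblasts, against 1.29 to 1.55 in fibroblasts and 68.1 to 73.5 in homogenates, with 1 of 4 tested higher and 1 lower in myofibroblasts. Epithelial markers summed to 11.6 to 17.6 in myofibroblasts, against 71.9 to 121 in fibroblasts and 829 to 840 in homogenates, with 2 of 4 tested lower in myofibroblasts. Neutrophil markers summed to 141 to 154 in myofibroblasts, against 169 to 227.5 in fibroblasts and 227 to 232 in homogenates. Without the flat Csf3r they summed to 0.0638 to 0.0648 in myofibroblasts, against 0.0459 to 0.0689 in fibroblasts and 43.0 to 44.2 in homogenates. Pericyte and smooth muscle markers summed to 584 to 588.5 in myofibroblasts, against 496 to 499 in fibroblasts and 470 to 509 in homogenates. Without the flat Notch3 and Mcam they summed to 36.9 to 48.8 in myofibroblasts, against 11.0 to 13.8 in fibroblasts and 9.28 to 11.9 in homogenates. Of the 5 of these that were tested, 3 were higher and 2 lower in myofibroblasts. Mesothelial and erythroid markers summed to less than 1 in both sorted groups. The part of these cells in the levels of the mitosis and spindle genes was not tested.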

How the data were processed

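The labels gave the group and replicate number of each of the 6 Cy3 arrays. Scanner output was deposited as spot intensity, written by Agilent Feature Extraction 12.0.3.1, per the submitters' processing notes. Per the file headers, the processed signal had background and a spatial trend removed, with no scaling between arrays. A table of intensity normalized by the authors was used as an alternative. Without controls an array had 59305 spots for 56605 probes, and 32994 probes were named through RefSeq accessions, for 22911 genes. No gene name came from elsewhere, and 23611 probes had no name here.

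Processed signals were divided by their array's 75th percentile and taken to log2, with outlier spots left out. Testing a gene required a probe well above background on the 2 arrays of either group compared. Two-sided tests used lmFit and eBayes of limma 3.58.1 (R 4.3.3) in 1 fit of all 6 arrays with 3 residual degrees of freedom, 5.57 with the prior, and Benjamini-Hochberg adjustment over all genes tested. Calls needed an adjusted p under 0.05. Where a probe was not well above background on both arrays of a group, the fold is a lower bound against the lowest signal that was well above background on each array. The number of arrays limits the precision. The fit was tested on simulated data.

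The members and gene lists were chosen with earlier results of these data known. Values per array are given for the 4 members of each role with the largest difference between the sorted groups and for any that did not pass, and up to 4 genes of each other list are named; Plk1, Cdk1, Aurka, Ccnb2, Nek2, Melk, Cdkn3, Ndc80, Cenpe, Pttg1, Cdkn1b, Rbl2, Col1a2, Marco, Ptprc and the other probes were given beyond that rule, after their values were seen. Alternatives changed the background correction, scaling, dim-probe filter, floor, probe rule, arrays fitted, weights, variance trend, threshold and replicate block, or left out each array.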

Additional observations from a re-analysis of the deposited data

How the results depend on the processing

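Between the sorted groups the count of called genes (36) ran from 30 to 40 under all alternatives except 2 stricter ones and leaving out arrays: 25 at an adjusted p under 0.01, 16 of 20 with genes well above background on all 4 arrays, and 24 to 36 without single arrays, where a lone array is assumed to vary like the other groups. Hmmr, by its brightest probe, was called lower with normexp on the median spot signal, quantile scaling, the authors' deposited table, an intensity trend and without fibroblast replicate 2. Of the 36 calls, 23 passed in every alternative that tested them, other than the stricter threshold. So did 18 of 31 for myofibroblasts and 6 of 16 for fibroblasts against homogenate. The filter for genes above background on all 4 arrays left some of these genes untested. For fibroblasts against homogenate the count (16) was 8 with normexp, 7 of 20 with genes above background on all 4 arrays, 9 at an adjusted p under 0.01 and 9 to 22 without single arrays. For myofibroblasts against homogenate (31) it was 20 to 35 without single arrays. In their deviations from the group mean, same-numbered arrays correlated at 0.0718, 0.0445 and -0.00861 over 14001 genes. With 2 arrays a group this cannot show whether the replicate numbers pair the samples. With the replicate block 35, 17 and 31 genes were called. Directions that turned were those of small differences or of genes with several probes, except that of Nuf2 for fibroblasts against homogenate. Nuf2, with 1 probe and a log2 difference of -1.005 there, turned without fibroblast replicate 1. With the mean over probes Hmmr was 3.93 between the sorted groups, 2.79 for myofibroblasts and -1.14 for fibroblasts against homogenate, where Mad2l1 was -0.14 and Prc1 -0.86. For fibroblasts against homogenate, median scaling gave 0.032 for Plk1, 0.18 for Ckap2, 0.035 for Anln and 0.22 for Cdc20, normexp 0.059 for Ckap2 and 0.016 for Anln, and quantile scaling 0.20 and 0.13. Without single arrays it ran from -2.31 to 0.30 for Nuf2, -1.01 to 0.84 for Ckap2, -0.89 to 1.67 for Prc1 and -0.34 to 0.26 for Cdc20. The deposited table gave -0.19 for Cdkn3 and -0.030 for Aurkb in myofibroblasts against homogenate; it moved the median of all genes to -0.51 there and to -0.47 between the sorted groups, and median scaling moved it to 0.39 and, for fibroblasts against homogenate, to 0.30. Over all genes, 1475 higher and 1282 lower calls between the sorted groups became 648 and 494 with weights per group, 690 and 574 with only the 4 arrays, 986 and 2902 with the deposited table, 1739 and 952 with median scaling, 588 and 442 without homogenate replicate 1, and 2709 and 3029 without fibroblast replicate 2. For myofibroblasts against homogenate 2042 higher and 2568 lower became 3526 and 1907 with median scaling and 1186 and 4573 with the deposited table. The causes were not tested. A slide or scan block was not run, since all arrays were on 1 slide and in 1 scan. In fibroblasts 20 of the 40 genes were not above background on both arrays, which limits their differences to bounds.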
